A study of Mus musculus with 2 samples.

Results

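Enteroendocrine cells are the scattered hormone-producing cells of the gut epithelium, and the 34 genes described here encode the machinery that makes, stores and releases their hormones together with the transcription factors of the lineage. The members were taken by symbol from a fixed list of granule proteins, prohormone-processing enzymes, exocytosis proteins, monoamine and ion channel genes and transcription factors, without the hormone genes themselves, and all 34 of 34 were found among the 24357 named genes of the deposited tables. The series holds 1 group of 2 RNA-seq libraries, replicate 1 and replicate 2, made from ileal epithelium of C57BL/6 mice with a wildtype genotype. Cells were detached with EDTA and sorted for the epithelial surface protein EpCAM, against the leukocyte protein CD45 and against the dead-cell dye 7AAD. The labels name no treatment and state no age, the code D15 and the numbers in the titles are not explained there, and the group holds no second genotype, so the results are levels and the spread between the 2 libraries, with no contrast and no p-value. Values are FPKM, fragment levels scaled to transcript length and library depth, and an error written ± is an SD (n = 2).

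As background, peptide hormones are made as precursors, packed with chromogranins and secretogranins into dense-core granules, cut by prohormone convertases, trimmed by carboxypeptidase E and amidated by the enzyme encoded by Pam. The granules then fuse with the plasma membrane through SNARE proteins and RAB3 GTPases when calcium enters the cell. The lineage starts from crypt progenitors that briefly express the basic helix-loop-helix factor NEUROG3, and NEUROD1, INSM1, NKX2-2, PAX4, PAX6, ISL1, RFX6 and others act after it.

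The libraries held about 26300000 fragments in replicate 2 and 16200000 in replicate 1, as read from the smallest steps of the values. Replicate 2 carried male transcripts (Eif2s3y, a Y-linked gene, at 14.9 FPKM, against 0 in replicate 1) and replicate 1 female ones (Xist at 0.00640 FPKM in replicate 2, against 7.91 in replicate 1), so sex and library cannot be told apart. Goblet cell genes summed to 0.501 times and Paneth cell genes to 1.85 times in replicate 2 what they summed to in replicate 1, while absorptive enterocyte genes stood at 0.999 times. Of 9 epithelial identity genes 9 were expressed in both libraries, led by Krt8, an epithelial keratin, with 2036 FPKM in replicate 2, against 2461 FPKM in replicate 1. The difference between the libraries also ran with the GC content of the gene over 10227 genes averaging 1 FPKM or more (Spearman's rho = -0.509, a description across genes).

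Of the 34 members, 25 reached 1 FPKM in both libraries, whereas 42.3% of all named genes did. The median member had 2.43 FPKM, with a median log2(FPKM + 1) of 1.76 over the members and of 0.40 over all named genes. No member was listed at 0, and the means ran over nearly 4 orders of size, led by Chga and Chgb and ending with Pcsk2. Chga and Chgb alone held 62.2% of the summed FPKM of the members in replicate 2 and 67.7% in replicate 1. The 9 members under 1 FPKM in at least 1 library were Pcsk2, Pax4, Pax6, Mnx1, Rab3b, Rab3c, Vwa5b2, Slc18a2 and Kcnj11.

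Promoters are shown for 4 genes of the granule and its convertase that stood in the upper part of the list and, beside them, for Pcsk2, which was close to absent. Each window runs from 250 bases before to 50 bases after an annotated start in RefSeq (GRCm38.p6, the assembly that mm10 is), 5′ to 3′ on the gene's strand, and the capitals mark the core of the cAMP response element, TGACGT or its reverse complement. This element is known as the site of CREB-family factors. The windows are chr12:102554691-102554990 (plus strand) for Chga, chr2:132781392-132781691 (plus) for Chgb, chr1:79439977-79440276 (minus) for Scg2, chr13:75089607-75089906 (plus) for Pcsk1 and chr2:143545883-143546182 (plus) for Pcsk2.
Chga: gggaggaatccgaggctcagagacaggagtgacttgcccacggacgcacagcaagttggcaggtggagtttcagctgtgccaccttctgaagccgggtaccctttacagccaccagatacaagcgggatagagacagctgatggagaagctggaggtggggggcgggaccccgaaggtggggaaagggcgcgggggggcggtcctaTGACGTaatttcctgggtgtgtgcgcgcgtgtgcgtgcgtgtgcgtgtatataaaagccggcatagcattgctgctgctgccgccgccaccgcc
Chgb: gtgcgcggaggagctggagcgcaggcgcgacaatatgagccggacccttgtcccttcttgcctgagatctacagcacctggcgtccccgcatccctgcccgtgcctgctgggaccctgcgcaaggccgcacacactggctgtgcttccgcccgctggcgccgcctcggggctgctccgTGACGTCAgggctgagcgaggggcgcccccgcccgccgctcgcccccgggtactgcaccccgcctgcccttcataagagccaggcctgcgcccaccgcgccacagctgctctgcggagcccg
Scg2: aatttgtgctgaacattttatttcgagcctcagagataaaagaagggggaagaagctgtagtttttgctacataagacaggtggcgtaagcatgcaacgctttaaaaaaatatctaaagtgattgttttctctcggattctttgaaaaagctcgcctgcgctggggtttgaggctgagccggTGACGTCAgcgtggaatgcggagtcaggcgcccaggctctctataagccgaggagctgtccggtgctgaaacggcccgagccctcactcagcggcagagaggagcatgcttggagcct
Pcsk1: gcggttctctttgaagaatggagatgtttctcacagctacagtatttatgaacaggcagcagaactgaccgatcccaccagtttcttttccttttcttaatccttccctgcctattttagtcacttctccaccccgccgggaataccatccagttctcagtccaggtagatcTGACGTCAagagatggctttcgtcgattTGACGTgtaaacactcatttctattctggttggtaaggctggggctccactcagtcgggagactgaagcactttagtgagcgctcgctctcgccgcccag
Pcsk2: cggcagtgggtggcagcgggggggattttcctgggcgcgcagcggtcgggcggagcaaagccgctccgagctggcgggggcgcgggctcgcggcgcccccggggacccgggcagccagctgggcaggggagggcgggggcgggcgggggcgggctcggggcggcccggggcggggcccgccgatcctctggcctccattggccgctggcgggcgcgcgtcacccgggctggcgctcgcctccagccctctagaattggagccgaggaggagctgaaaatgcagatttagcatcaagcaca

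The full palindrome TGACGTCA began 72 bases upstream of the RefSeq start in Chgb, 68 bases upstream in Scg2 and 78 bases upstream in Pcsk1. The whole Chgb window lies inside the gene as GENCODE places it, from 132781278, so its palindrome is not upstream of the GENCODE start. The same holds for the Scg2 palindrome, as GENCODE starts this minus-strand gene at 79440120. Chga carried the core TGACGT 44 bases upstream, followed by AA where the palindrome has CA, and Pcsk1 had a second core 50 bases upstream. The Pcsk2 window held neither. RefSeq held 32 windows for 27 members, and the palindrome was found in 5 of the 32 (also in Pax6 and Slc18a2), against 1.79% of all 32851 windows searched on both strands. The core, which every palindrome contains, was found in 10 of the 32 windows, from 9 members, and in 7.51% of all windows. Ddc, Pam, Pcsk1n, Scgn, Neurod1 and Scg3 averaged above 5 FPKM, and their windows held no core. Pax6 and Slc18a2, both under 1 FPKM in at least 1 library, held the palindrome. A link between the element and the level was not tested. The E-box CAGATG, a form that NEUROD1 and NEUROG3 can bind, was found in 1 of the 32 windows (Nkx2-2) and in 17.2% of all windows, and the E-box CAGCTG in 11 of the 32 and in 16.3%. The letters TATAAA, those of the TATA box, were found in 3 of the 32 and in 13.6%. They began 5 bases after the RefSeq start in Chga, 68 bases before it in Ddc and 120 bases before it in Rab3b. GENCODE starts Chga further downstream, at 102554969, so the TATAAA of Chga lies upstream of the GENCODE start. These matches describe letters only. Cpe, Insm1, Kcnj11, Pax4, Slc18a1, Snap25 and Trpa1 were not matched.

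The granule proteins were the most abundant group, with a median of 11.7 FPKM and 6 of 6 at 1 FPKM or more in both libraries. Chga lies on the plus strand of chromosome 12 (102554969 to 102565028, GENCODE M21 on mm10) and encodes chromogranin A, the granule protein most used to recognise endocrine cells. It had 149.7 (replicate 2) and 227 FPKM (replicate 1), a mean of 188 ± 54.9 FPKM that placed it at percentile 98.3 of all named genes. Chgb, the chromogranin B gene on the plus strand of chromosome 2 (132781278 to 132795079), had 162 FPKM in replicate 2, against 193 FPKM in replicate 1. The 2 chromogranins overlapped in level: Chga over Chgb was 0.925 in replicate 2 and 1.18 in replicate 1.

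The other granule proteins stood an order of size lower. Scg2, the precursor of the peptide secretoneurin, had 12.9 (replicate 2) and 16.7 FPKM (replicate 1), so that Chga exceeded it 11.6-fold in replicate 2 and 13.6-fold in replicate 1. Scg5, which encodes 7B2, the chaperone of prohormone convertase 2, had 7.64 FPKM in replicate 2, against 9.50 FPKM in replicate 1. Scgn, which encodes the calcium sensor secretagogin, had 5.71 (replicate 2) and 8.07 FPKM (replicate 1). Scg3, which encodes a granule protein that binds chromogranin A, had nearly the same level in both libraries, at 5.56 ± 0.131 FPKM.

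Among the processing genes 4 of 5 were expressed and 1 was at the limit of detection. Cpe, the carboxypeptidase that removes basic residues after cleavage, led with 29.9 FPKM in replicate 2, against 36.1 FPKM in replicate 1. Pcsk1, on the plus strand of chromosome 13 (75089826 to 75134861), encodes prohormone convertase 1, the enzyme that releases GLP-1 from proglucagon, and had 12.0 (replicate 2) and 12.9 FPKM (replicate 1). Pcsk2 encodes prohormone convertase 2, which in pancreatic alpha cells releases glucagon from the same precursor. It had 0.0248 FPKM in replicate 2, against 0.0271 FPKM in replicate 1, about 3 fragments in replicate 2 and 2 in replicate 1. The level that 3 fragments would give was 0.0250 FPKM in replicate 2 and 0.0405 in replicate 1, and both values lie below it.

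Pcsk1 over Pcsk2 was 482 in replicate 2 (95% exact interval 163 to 2318) and 476 in replicate 1 (132 to 3943), and such intervals cover counting error only. The chaperone gene Scg5 was present although its client gene Pcsk2 was near 0. Pcsk1n, which encodes proSAAS, an inhibitor of prohormone convertase 1, had 5.39 (replicate 2) and 8.91 FPKM (replicate 1). Relative to Pcsk1 it stood at 0.451 in replicate 2 (0.396 to 0.512) and 0.691 in replicate 1 (0.606 to 0.788), so the ratio differed between the libraries by more than counting error. The GC content was 57.3% for Pcsk1n and 40.6% for Pcsk1, and the library difference ran with GC. In log2(FPKM + 1), replicate 2 minus replicate 1 was -0.63 for Pcsk1n and -0.10 for Pcsk1 as deposited. With the GC and length trend removed these were -0.44 and -0.29, so the gap between the genes was smaller. Pam had 7.26 FPKM in replicate 2, against 7.50 FPKM in replicate 1.

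**Figure D1:**
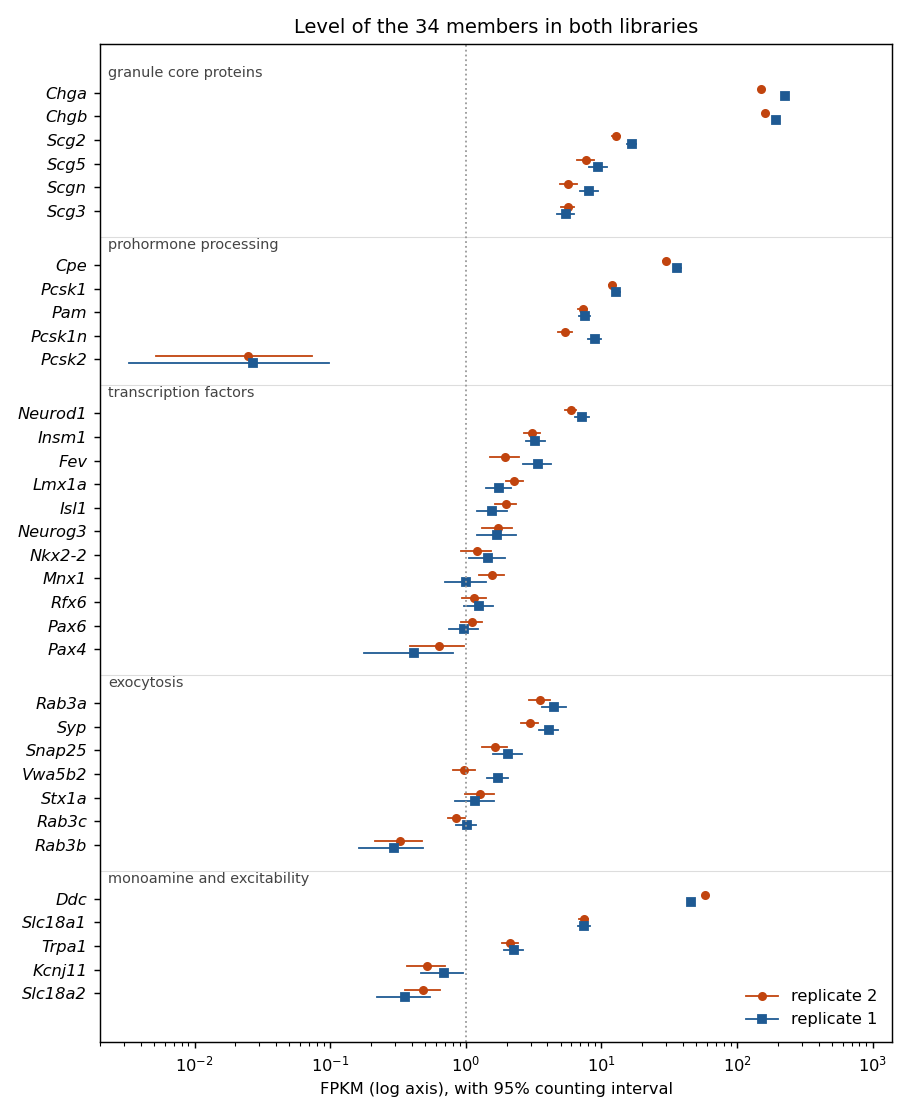
Level of each of the 34 members in FPKM on a log axis, by role, with replicate 2 as circles above and replicate 1 as squares below and lines for 95% Poisson counting intervals; the dotted line marks 1 FPKM. Chga and Chgb lie above 100 FPKM in both libraries, Pcsk2 lies near 0.025 FPKM, and the 11 transcription factors lie between 0.411 and 7.18 FPKM.

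The transcription factors were low, with a median of 1.71 FPKM and 8 of 11 at 1 FPKM or more in both libraries. Their means ran from 0.525 to 6.56 FPKM. Neurod1, which drives terminal endocrine differentiation, was the highest, with 5.93 (replicate 2) and 7.18 FPKM (replicate 1). Insm1, a zinc-finger factor of endocrine and neural lineages, followed with 3.08 FPKM in replicate 2, against 3.25 FPKM in replicate 1. Neurog3, on the plus strand of chromosome 10 (62133090 to 62134763), is the factor that commits progenitors to the endocrine fate. It had 1.71 (replicate 2) and 1.70 FPKM (replicate 1), resting on about 62 fragments in replicate 2 and 38 in replicate 1.

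Neurod1 exceeded Neurog3 3.46-fold in replicate 2 (2.65 to 4.61) and 4.23-fold in replicate 1 (3.01 to 6.09). Some factors are tied to serotonin-producing enterochromaffin cells. Fev, an ETS factor, had 1.94 FPKM in replicate 2, against 3.41 FPKM in replicate 1. Lmx1a, a LIM homeobox factor, had 2.28 (replicate 2) and 1.75 FPKM (replicate 1). Mnx1, another homeobox factor, had 1.56 FPKM in replicate 2, against 0.997 FPKM in replicate 1.

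The remaining factors, all of which act in endocrine differentiation of gut or pancreas, averaged between 0.525 and 1.77 FPKM. Isl1 stood at 1.77 ± 0.289 FPKM, Nkx2-2 at 1.34 ± 0.178 FPKM, Rfx6 at 1.21 ± 0.0760 FPKM and Pax6 at 1.04 ± 0.0941 FPKM. Pax4, which acts early in the pancreas lineage too, was the lowest, with 0.639 (replicate 2) and 0.411 FPKM (replicate 1), about 20 fragments in replicate 2 and 8 in replicate 1. Pax6 over Pax4 was 1.73 in replicate 2 (1.09 to 2.98) and 2.36 in replicate 1 (1.14 to 5.73). For 10 of the 11 factors the counting intervals of the libraries overlapped, the exception being Fev. Among 10189 genes averaging 1 FPKM or more, 50.1% had intervals apart. Several factors rest on few fragments, such as Mnx1 with 34 in replicate 1, and few fragments make intervals wide and overlap likely.

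In the exocytosis group 4 of 7 members reached 1 FPKM in both libraries. Rab3a, which encodes a GTPase of regulated vesicle release, led with 3.50 FPKM in replicate 2, against 4.50 FPKM in replicate 1. Its relatives were lower, Rab3c at 0.851 (replicate 2) and 1.01 FPKM (replicate 1), and Rab3b at 0.324 FPKM in replicate 2, against 0.294 FPKM in replicate 1. Syp, which encodes the vesicle membrane protein synaptophysin, had 2.96 (replicate 2) and 4.08 FPKM (replicate 1).

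The neuronal-type SNARE genes were near 1 to 2 FPKM. Snap25 had 1.63 FPKM in replicate 2, against 2.05 FPKM in replicate 1, and Stx1a, the syntaxin of synaptic release, had 1.28 (replicate 2) and 1.16 FPKM (replicate 1). Vwa5b2 had 0.976 FPKM in replicate 2, against 1.72 FPKM in replicate 1.

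The widely expressed relatives of these genes, named after their values were seen, were several-fold higher in the same libraries. Snap23 exceeded Snap25 9.61-fold in replicate 2 (7.67 to 12.1) and 4.83-fold in replicate 1 (3.72 to 6.38). Stx3, the apical syntaxin of enterocytes, exceeded Stx1a 25.2-fold in replicate 2 and 25.5-fold in replicate 1. Rab3d exceeded Rab3a 3.79-fold in replicate 2 and 3.40-fold in replicate 1, and the members Rab3a, Rab3b and Rab3c made up 26.1% of the FPKM of the 4 Rab3 genes in replicate 2 and 27.5% in replicate 1. In the convertase family the gap was smaller, with Pcsk1 over the ubiquitous Furin at 0.682 in replicate 2 and 0.633 in replicate 1. Cpe was above its relative Cpd, by 3.58-fold in replicate 2 and 3.85-fold in replicate 1.

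**Figure D2:**
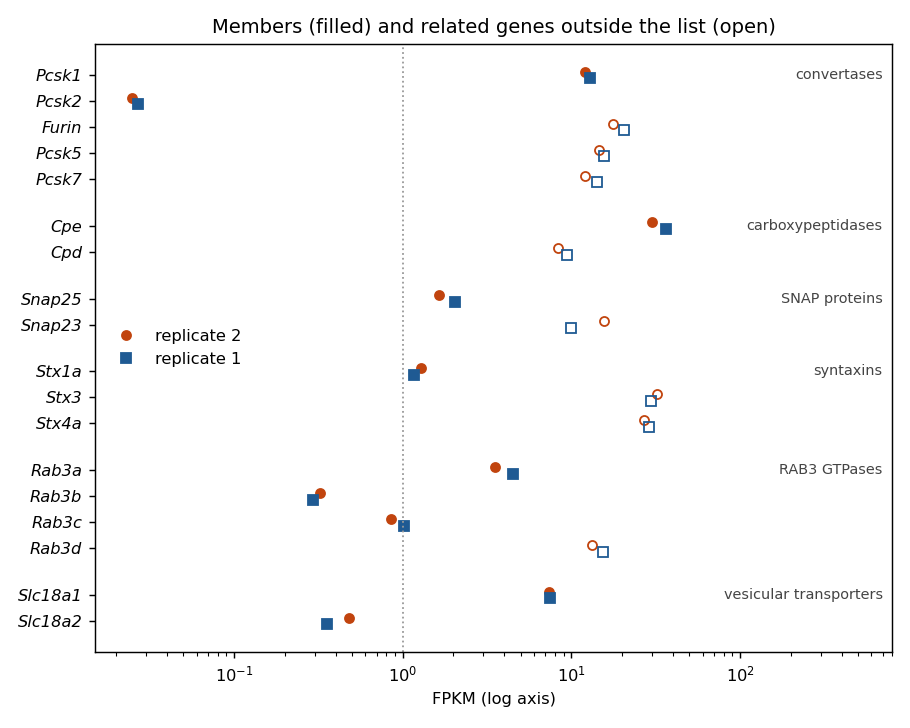
FPKM on a log axis for members (filled symbols) and related genes outside the list (open symbols), with replicate 2 as circles and replicate 1 as squares; the dotted line marks 1 FPKM. Snap25, Stx1a and Rab3a lie below Snap23, Stx3, Stx4a and Rab3d in both libraries, whereas Cpe lies above Cpd and Pcsk1 lies close to Furin, Pcsk5 and Pcsk7.

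Of the monoamine and ion channel members, Ddc was far above the others. It encodes aromatic amino acid decarboxylase, the last step of serotonin synthesis and an enzyme also found outside endocrine cells, and had 58.4 (replicate 2) and 46.0 FPKM (replicate 1). Slc18a1, which encodes VMAT1, the vesicular monoamine transporter of endocrine cells, had 7.38 FPKM in replicate 2, against 7.45 FPKM in replicate 1. Slc18a2, which encodes the neuronal type VMAT2, had 0.479 (replicate 2) and 0.357 FPKM (replicate 1), so that Slc18a1 exceeded it 15.4-fold in replicate 2 (11.3 to 21.1) and 20.9-fold in replicate 1 (13.4 to 34.1). Trpa1, an irritant-sensing cation channel of enterochromaffin cells, stood at 2.18 ± 0.0949 FPKM. Kcnj11, the pore subunit of the ATP-sensitive potassium channel, had 0.514 FPKM in replicate 2, against 0.692 FPKM in replicate 1.

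The 28 members averaging 1 FPKM or more were ordered by level. Neighbours were called apart where their values did not overlap and the step exceeded a limit, which was the size of library-to-library difference that 95% of the 200 genes closest in level stayed under. Of 27 neighbouring pairs 3 were apart: Chgb above Ddc by 1.75 on the log2(FPKM + 1) scale (limit 0.62), Ddc above Cpe by 0.64 (limit 0.62) and Cpe above Scg2 by 1.11 (limit 0.69). From Scg2 down to Pax6 no neighbouring pair passed both conditions. The values of 5 of those pairs did not overlap (Pcsk1 above Scg5, Scg5 above Slc18a1, Neurod1 above Scg3, Scg3 above Rab3a and Rfx6 above Pax6), with steps under the limit.

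Other genes of the same functions were taken in lists chosen with earlier results of these data known. Of all named genes, 42.3% reached 1 FPKM in both libraries. Of 12 other granule and processing genes 9 reached 1 FPKM in both libraries, led by Resp18, an endocrine granule protein, with 21.5 (replicate 2) and 40.3 FPKM (replicate 1), then by the convertases Furin at 19.0 ± 1.99 FPKM and Pcsk5 at 15.1 ± 0.753 FPKM. Of 23 other exocytosis genes 16 did, led by Vamp8, a SNARE of secretory epithelia, at 261 ± 38.3 FPKM, Vamp3 at 46.3 ± 6.26 FPKM and Stxbp2 at 42.7 ± 6.93 FPKM. Of 13 other transcription factors 4 did, led by Atoh1, the factor of all secretory lineages, at 12.1 ± 1.67 FPKM, Foxa1 at 6.12 ± 0.953 FPKM and Sox4 at 5.57 ± 1.42 FPKM. This was a smaller share than that of all named genes, and the median of the list was 0.657 FPKM.

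Of 12 other monoamine genes 8 reached 1 FPKM in both libraries, beside 42.3% of all named genes. The 3 highest were Maoa and Maob, the monoamine oxidases, at 79.9 ± 2.61 and 37.7 ± 14.3 FPKM, and Spr, an enzyme of the cofactor pathway, at 56.2 ± 3.04 FPKM. Tph1, the serotonin-synthesising hydroxylase of the gut, stood at 26.3 ± 1.31 FPKM and its brain counterpart Tph2 was listed at 0 in both libraries. Tph1 exceeded Slc18a1 3.44-fold in replicate 2 and 3.66-fold in replicate 1, and Ddc exceeded Tph1 2.30-fold in replicate 2 and 1.69-fold in replicate 1. Among the other excitability genes were the calcium channel gene Cacna1d at 1.42 ± 0.152 FPKM and Abcc8, the partner subunit of Kcnj11, at 1.05 ± 0.345 FPKM.

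As deposited, 9 of the 10 other granule and processing genes averaging 1 FPKM or more were lower in replicate 2, and 4 of the 10 were under scaling to epithelial identity genes, beside 36.0% of all genes as deposited and 16.1% under the scaling. For the other exocytosis genes these counts were 11 and 6 of 16, for the transcription factors 2 and 2 of 4 and for the monoamine genes 4 and 1 of 8. Of the genes in these 4 lists 0 differed by more than 1 as deposited, as 0.962% of all genes did by being lower and 0.566% by being higher.

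Neurons, glia and mast cells share several of these genes, and most of their listed markers were under 1 FPKM in the sorted cells. A gate on EpCAM selects against these cell types. Some markers still stood at levels like those of low members. The neuron marker Uchl1 averaged 0.373 FPKM, and the mast cell marker Mcpt1 had 0.177 FPKM in replicate 2, against 0.847 FPKM in replicate 1. The members Slc18a2 and Rab3b averaged 0.418 and 0.309 FPKM. Carry-over from such cells into the members' values was not tested. Of 13 enteric neuron markers, Gap43 and Vip were among those listed at 0 in both libraries, and Ret, with 3.01 FPKM in replicate 2, against 2.75 FPKM in replicate 1, was the one above 1 FPKM. Without Ret the list summed to 1.13 (replicate 2) and 1.72 FPKM (replicate 1). Of 5 glial markers Sox10 was listed at 0 and Erbb3, an epithelial receptor as well, had 47.3 ± 3.57 FPKM. Of 8 mast cell markers Cpa3, Fcer1a and Ms4a2 were listed at 0 and Kit led with 2.49 ± 0.196 FPKM, in a list sum of 3.37 FPKM in replicate 2, against 3.85 FPKM in replicate 1. Of 6 T cell markers 1 reached 1 FPKM in both libraries, Gzma, with 7.29 FPKM in replicate 2, against 2.72 FPKM in replicate 1, and the part of this difference in the members' values was not tested.

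Between the libraries, 20 of 28 members were lower and 8 higher in replicate 2, whereas 36.0% of 10601 genes averaging 1 FPKM or more were lower; with both libraries scaled to epithelial identity genes, the members split into 14 lower and 14 higher, where 16.1% of all genes were lower. The median difference, replicate 2 minus replicate 1 in log2(FPKM + 1), was -0.13 over the members and 0.11 over all genes. The members' median thus lay 0.24 below that of all genes, and 0.30 below it under the epithelial scaling. In such bulk libraries fewer cells of a type and less RNA per cell cannot be told apart. With the GC and length trend removed, 20 of 28 members were still lower in replicate 2, as 30.9% of all genes were, and the members' median was -0.16, against 0.11 for all genes. The 9 epithelial identity genes had a median GC of 56.4%, against 50.3% for all genes. Their own median difference was -0.27 as deposited and -0.12 with the trend removed, so the scaling to them carries part of that trend. Housekeeping genes summed to 1.02 times in replicate 2. The sex, goblet cell and Paneth cell differences given above lie between the same 2 libraries as those of the members. Their part in the members' values cannot be told apart and was not tested.

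By more than 0.5, 3 of the 28 members were lower in replicate 2 (4.74% of all genes) and 0 were higher (6.78% of all genes). The 3 were Pcsk1n at -0.63, Chga at -0.60 and Fev at -0.58, and under the epithelial scaling 0 members were lower by that much. By more than 1, 0 members were lower (0.962% of all genes) and 0 were higher (0.566%). Chga alone exceeded the limit described above, 0.54 at its level, as 5.14% of all genes exceeded theirs. After removal of the GC and length trend, Chga stood at -0.32, Pcsk1n at -0.44 and Fev at -0.31, whereas Scgn stood at -0.53 and Mnx1 at 0.64, against -0.43 for Scgn and 0.36 for Mnx1 as deposited. Chga then lay within its limit, and Mnx1 lay past the limit of 0.59 set at its level by the deposited values. The median GC content was 49.7% for the 28 members and 50.3% for all genes.

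Counting intervals of the libraries did not overlap for 9 members that were lower in replicate 2 (Chga, Chgb, Scg2, Scgn, Pcsk1n, Cpe, Fev, Syp and Vwa5b2) and for 1 that was higher (Ddc). Among 10189 genes 16.2% were lower by this criterion and 50.1% were apart in either direction, where 10 of 28 members were. This criterion sets the libraries, not conditions, against each other.

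**Figure D3:**
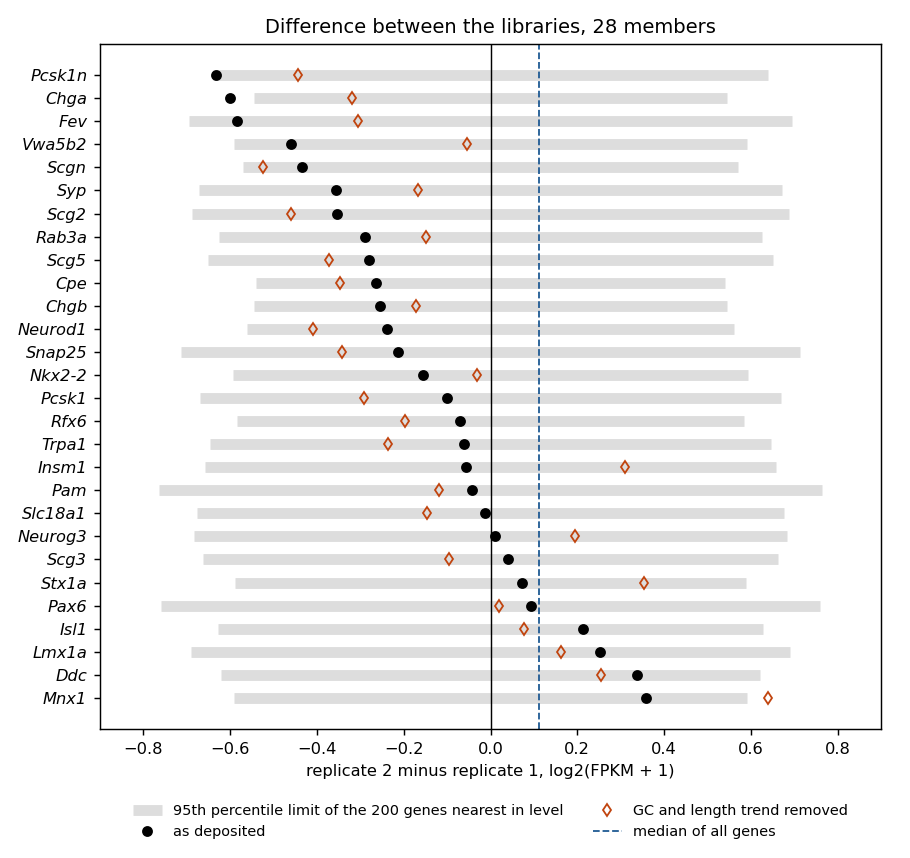
Replicate 2 minus replicate 1 in log2(FPKM + 1) for the 28 members averaging 1 FPKM or more (filled circles) and the same with the GC and length trend removed (open diamonds); grey bars span the limit set by the 200 genes closest in level and the dashed line is the median of all genes, 0.11. As deposited 20 circles lie left of 0, 14 under scaling to epithelial identity genes, and of the circles only Chga passes its bar. Of the diamonds only Mnx1 does, at 0.64.

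Scaling to the epithelial genes left 5 of 6 granule proteins and 4 of 5 exocytosis members lower in replicate 2, as they were without it, but changed the count of lower processing members to 2 of 4, against 4 of 4 as deposited. Of the transcription factors 5 of 10 were lower as deposited and 3 of 10 under this scaling. Of all genes averaging 1 FPKM or more, 36.0% were lower as deposited and 16.1% under this scaling. Summed FPKM in replicate 2 over replicate 1 was 0.746 for the granule proteins, 0.778 for exocytosis, 0.834 for processing, 0.943 for the transcription factors and 1.21 for the monoamine and ion channel members. The last sum was made up of Ddc to 84.8% in replicate 2 and 81.1% in replicate 1, and without Ddc it was 10.5 FPKM in replicate 2, against 10.8 FPKM in replicate 1. Epithelial identity genes summed to 0.840 times in replicate 2, so that relative to them the granule and exocytosis sums stayed lower in replicate 2 while the transcription factor sum was higher.

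Set against the 10 hormone genes, the member sum differed little between the libraries. The hormones, led by Gip with 1244 (replicate 2) and 1144 FPKM (replicate 1), Sct with 784 (replicate 2) and 1155 FPKM (replicate 1) and Nts with 462 (replicate 2) and 548 FPKM (replicate 1), summed to 0.830 times in replicate 2. The 34 members summed to 14.1% of the hormone sum in replicate 2 and 14.5% in replicate 1, a ratio that no scaling of a library changes, and without Ddc to 12.5% in replicate 2 and 13.5% in replicate 1. Of the hormones, 2 differed by more than 1 on the log2 scale, as no member did: Pyy was at 96.3 FPKM in replicate 2, against 260 FPKM in replicate 1, and Gcg at 51.4 FPKM in replicate 2, against 107 in replicate 1, while Pcsk1 stood at 0.928 times in replicate 2. Tuft cell genes summed to 0.669 times and goblet cell genes to 0.501 times in replicate 2, both lower ratios than that of the members, 0.806, and none of these differences between lists was tested, as each library is 1 sample.

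**Figure D4:**
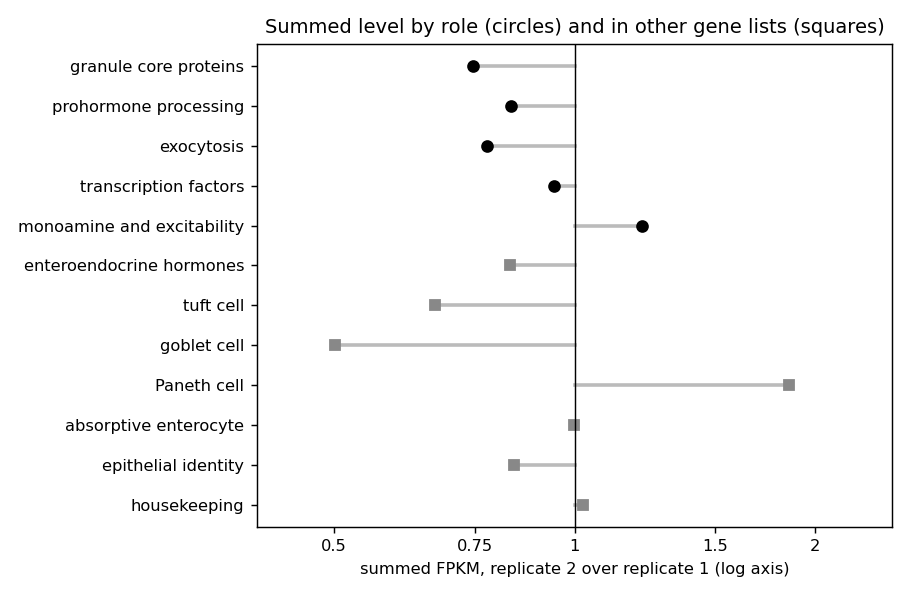
Summed FPKM in replicate 2 over replicate 1, on a log axis, for the 5 roles of the members (circles) and for other gene lists (squares). The granule proteins lie at 0.746 and the hormones at 0.830, between goblet cell genes at 0.501 and absorptive enterocyte genes at 0.999, and Paneth cell genes lie at 1.85.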

How the data were processed

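RNA was sequenced from sorted ileal epithelial cells in 2 libraries of 1 group, numbered in accession order. The authors deposited 1 table of FPKM per library. The tools named are, per the submitters' processing notes, Cufflinks 2.2.1 and TopHat2 2.0.14, and the build is mm10. Annotation, strand setting and treatment of multiply matching reads: not given in the sources used here. Of 24384 rows, 27 named by a calendar date were left out. The labels do not state separate animals.

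FPKM are not counts, and with 1 group no test was run. Differences are in log2(FPKM + 1), which shrinks those of low genes, over genes averaging 1 FPKM or more. Depth came from genes with 1 transcript, where FPKM times transcript length less 160 bases gives the worth of 1 fragment; 59.4% (replicate 2) and 58.8% (replicate 1) of low values fell within 0.05 of whole fragments, so fragment numbers, based on the longest protein-coding transcript in GENCODE M21, are approximate. Poisson intervals (95%) for levels and exact binomial ones for ratios cover counting error only. The GC and length trend was removed by subtracting cell medians over 10 GC bins of 5 length bins each, and lengths matched 96.5% of genes.

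The members and lists were chosen with earlier results of these data known. All members are named, as are the 3 highest genes of each related list and the highest of each marker list that is described. Snap23, Stx3, Stx4a, Rab3d, Pcsk7, Cpd, Tph1, Tph2, Eif2s3y, Xist, Uchl1, Mcpt1 and the markers listed at 0 were named after their values were seen, and Pyy and Gcg for a difference above 1. Some genes of these lists are not reported here. The calculations were tested on simulated data. Alternatives changed the pseudocount, minimum, scaling, members and libraries. Python 3.11.15, numpy 2.4.6, pandas 2.3.3, scipy 1.17.1 and matplotlib 3.10.9 were used.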

Additional observations from a re-analysis of the deposited data

How the results depend on the processing

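With 1 group of 2 libraries, depth and the number of libraries limit what can be said of low members such as Pcsk2 and Pax4. No paired analysis was possible because the series holds 1 group. The median difference between libraries over the members, -0.13, was 0.033 with scaling to epithelial identity genes, the reversal given with the result above, since that scaling raises replicate 2. It was -0.19 with a pseudocount of 0.1, -0.085 with no minimum FPKM, -0.25 with a minimum of 5 FPKM, -0.22 with replicate 2 rescaled by the median ratio, -0.16 with the GC and length trend removed, -0.085 without members also known from other cells and -0.15 as a mean. Members lower in replicate 2 by more than 0.5, 3 in the report, numbered 5 with rescaling by the median ratio, 0 with epithelial scaling and 1 with the trend removed, and members higher, 0 in the report, numbered 1 with a pseudocount of 0.1, 2 with epithelial scaling and 1 with the trend removed. The count of members expressed, 25, was 13 at a minimum of 5 FPKM, and 27 with either library alone. The median level, 1.76, was 1.31 and 1.25 with pseudocounts of 0.1 and 0.01, 2.24 over members averaging 1 FPKM or more, and 1.68 to 1.89 with 1 library left out. The 3 pairs of neighbours called apart numbered 3 under each of 3 alternatives.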
